A study of Mus musculus with 33 samples.

Results

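The cytochrome P450 genes of families 1 to 4 encode the haem enzymes of the endoplasmic reticulum (ER) membrane that oxidise drugs, other foreign chemicals, steroids and fatty acids. The members were matched by name alone, and this family was chosen with earlier results of these data known. A member is a protein-coding gene whose symbol is Cyp followed by 1, 2, 3 or 4, a subfamily letter and a number, and whose Ensembl identifier has a row in all 6 deposited tables. This gave 64 genes of the 25659 genes with a row in all 6 tables. A further 11 genes with such names (Cyp2a22, Cyp2c37, Cyp2c50, Cyp2c54, Cyp2c65, Cyp2c66, Cyp2g1, Cyp2j11, Cyp2w1, Cyp3a25 and Cyp4a29) had rows in only some tables and were left out. Within a table a member was tested where its mean normalized count was at least 5, which held for 57 members in B6 liver, 51 in CAST liver, 58 in F1 liver, 43 in B6 kidney, 43 in CAST kidney and 49 in F1 kidney.

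Male mice of 3 genotypes, aged 15 to 23 weeks, received tunicamycin (TM) at 1 mg per kg by intraperitoneal injection in DMSO, and control mice received DMSO. TM stops the attachment of N-linked sugars to new proteins, which causes ER stress. B6 is the inbred strain C57BL/6J, CAST is the wild-derived inbred strain CAST/EiJ, and F1 is the cross of B6 females with CAST males, so a single reciprocal direction of the cross was used. The GEO labels state that tissue was taken 24 hours after injection, and the methods give a shorter time. Liver and kidney were profiled by RNA sequencing, with 3 control and 2 TM libraries for B6 liver, 2 and 3 for CAST liver, 3 and 2 for F1 liver, and 3 and 3 for each kidney group. The labels number the replicates but do not name animals, so p-values measure the spread between these samples. All samples are whole tissue, in which fewer cells of a type and less RNA per cell cannot be told apart.

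The recovered reads per library numbered 3355262 to 23094521. Genes of olfactory and vomeronasal receptors took 646 to 2889 CPM in 5 libraries (B6 liver control 2 and TM 3, F1 liver control 2 and TM 2, and F1 kidney control 1). This CPM was taken over the reads outside predicted genes such as Gm10800, so the share of all reads is lower. In F1 liver control 2 the repeat-like transcript Gm10800 alone took 61.5% of the reads. Counts of members are therefore given below also without these 5 libraries where they differ by over 1.5 times. Over all genes tested, the log2 fold change had a median of 0.09 in B6 liver, -0.04 in CAST liver, 0.21 in F1 liver, -0.01 in B6 kidney, -0.05 in CAST kidney and -0.13 in F1 kidney, so fold changes in the F1 tables are offset by that much from the bulk of genes.

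P450 enzymes take electrons from NADPH through the reductase Por or through cytochrome b5, and each needs a haem group. In liver they are made mainly by hepatocytes, most of them in the hepatocytes around the central vein, and their genes are controlled by nuclear receptors and other ligand-sensing factors. CAR (Nr1i3) is best known for Cyp2b10, PXR (Nr1i2) for Cyp3a11, the aryl hydrocarbon receptor (Ahr) for Cyp1a1 and Cyp1a2, and PPARα (Ppara) for Cyp4a10 and Cyp4a14, while HNF4α and C/EBP factors maintain many of them. The genes lie in tandem clusters, in mouse Cyp2c on chromosome 19, Cyp2d on chromosome 15, Cyp3a on chromosome 5, Cyp4a and Cyp2j on chromosome 4, and Cyp2a, Cyp2b and Cyp2f on chromosome 7.

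Promoter sequence from RefSeq (GRCm38.p6, from 250 bases before to 50 after each start) was found for 53 of the 64 members, with 59 entries. The HNF4-type letters CAAAGTCCA were searched on both strands of the 250 bases before each start only. They occurred in 7 of these 59 entries (11.9%) and in 0.384% of all 32851 promoter entries. The 7 are shown because they fall in Cyp2c genes that were called lower with TM in B6 or CAST liver and in 2 Cyp3a genes that were not called. The letters were not found for Cyp2c23, Cyp2c29, Cyp2c38 or Cyp2c39, which were also called lower in B6 or CAST liver. A link between the letters and the fall was not tested. The letters are in capitals, with 16 bases of flank on each side, written 5′ to 3′ on the strand of the gene.
Cyp2c40: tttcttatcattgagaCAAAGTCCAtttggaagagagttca
Cyp2c69: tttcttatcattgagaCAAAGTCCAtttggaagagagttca
Cyp2c67: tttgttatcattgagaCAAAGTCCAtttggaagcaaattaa
Cyp2c68: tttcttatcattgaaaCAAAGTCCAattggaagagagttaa
Cyp2c70: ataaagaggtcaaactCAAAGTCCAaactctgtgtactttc
Cyp3a11: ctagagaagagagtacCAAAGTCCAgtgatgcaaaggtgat
Cyp3a16: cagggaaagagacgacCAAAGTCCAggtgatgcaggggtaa
These stretches end 21 to 101 bases before the start and lie on the minus strand at chr19:39812835-39812875 (Cyp2c40), chr19:39886820-39886860 (Cyp2c69), chr19:39649143-39649183 (Cyp2c67), chr19:39741154-39741194 (Cyp2c68), chr19:40187326-40187366 (Cyp2c70), chr5:145879939-145879979 (Cyp3a11) and chr5:145469798-145469838 (Cyp3a16). The stretches of Cyp2c40 and Cyp2c69 are the same letter for letter, and those of Cyp2c67 and Cyp2c68 are close to them. These entries are therefore not independent, and the 11.9% was not tested against the share of all entries. A match to the HNF4-type letters is a description of the letters and not a measured binding site.

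The promoters of Cyp2b10 and Cyp2c55 are shown because these were the members called higher with TM. The 250 bases before each start are printed on the plus strand, Cyp2b10 at chr7:25897408-25897657 and Cyp2c55 at chr19:39006769-39007018.
Cyp2b10: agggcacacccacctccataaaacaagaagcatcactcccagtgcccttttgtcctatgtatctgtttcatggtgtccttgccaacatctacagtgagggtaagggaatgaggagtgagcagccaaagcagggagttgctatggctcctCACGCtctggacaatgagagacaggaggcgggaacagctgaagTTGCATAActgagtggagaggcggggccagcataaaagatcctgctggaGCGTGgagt
Cyp2c55: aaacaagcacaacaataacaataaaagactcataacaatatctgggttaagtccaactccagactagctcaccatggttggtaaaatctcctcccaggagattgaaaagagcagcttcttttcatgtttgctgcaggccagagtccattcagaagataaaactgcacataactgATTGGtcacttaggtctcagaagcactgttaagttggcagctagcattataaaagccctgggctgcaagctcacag
Capitals in Cyp2b10 mark the C/EBP-type letters TTGCNNAA (N stands for any base) and 2 copies of the Ahr core letters GCGTG, the upstream copy on the other strand. Those in Cyp2c55 mark CCAAT on the other strand. On both strands of the 250 bases before the start, TTGCNNAA occurred in 25.4% of member entries and 9.56% of all entries. GCGTG occurred in 20.3% and 28.2%, and CCAAT in 40.7% and 33.8%.

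In liver, most P450 members had a log2 fold change below 0 after TM and many of those were called lower, and in kidney few passed the test. A gene was called where limma gave a Benjamini-Hochberg adjusted p below 0.05 over all genes of the table and a change of at least 1.5-fold on the log2(normalized count + 1) scale. In B6 liver 21 of the 57 members tested were called lower and 1 higher, where 6.45% of all genes tested were called lower and 4.8% higher. In CAST liver 16 of 51 were lower and 1 higher, against 10.4% and 11.1% of all genes. In F1 liver 10 of 58 were lower and 2 higher, against 4.15% and 3.42%. The median log2 fold change of the members was -1.02, -0.53 and -0.94 in B6, CAST and F1 liver. Of the 51 members tested in all 3 livers, 39 had a log2 fold change below 0 in every liver, 10 had mixed signs, and only Cyp4f16 and Cyp4f17 were above 0 in all 3. Cyp1a2, Cyp4a10 and Cyp4a32 were called lower in all 3 livers, 13 further members in 2 of them and 12 in 1. Agreement between the 3 livers was not counted over all genes, so that of the members cannot be set against it. The map of fold changes shows the blue block of the liver columns and the pale kidney columns.

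**Figure D1:**
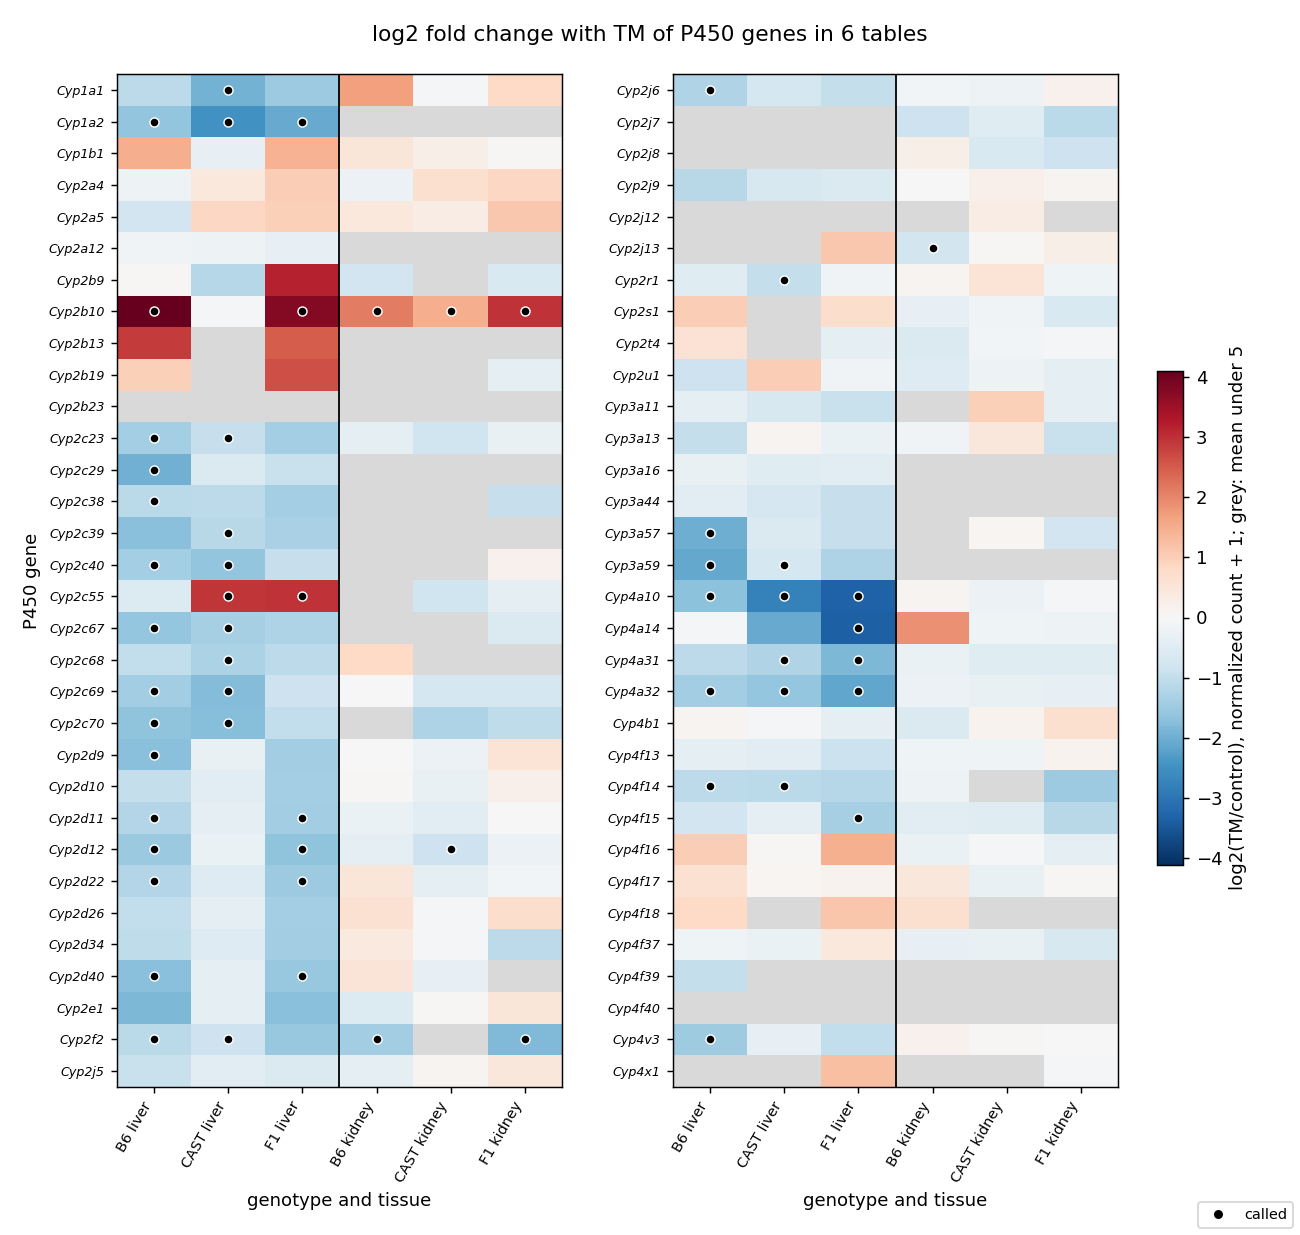
Colour gives the log2 fold change with TM of each P450 gene (rows, in 2 panels) in each genotype and tissue (columns), on a scale symmetric about 0. Black dots mark called genes and grey marks a mean normalized count under 5. The liver columns hold 21, 16 and 10 genes called lower, and Cyp2b10 is called higher in 2 livers and all 3 kidneys.

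How many members were called depended on single libraries and on the trend. In limma without trend 0 members were called in B6 liver and 0 in F1 liver, where 33 and 25 had an unadjusted p below 0.05, edgeR called 13 and 19 and DESeq2 31 and 28. CAR, Ahr, Ppara, Nr0b2, Onecut1, Alas1 and Hmox1, described below, were not called without trend in these 2 livers either (the lowest adjusted p was that of Nr0b2 in B6 liver, 0.0521). In B6 liver 3 calls were left without control 3 and 4 without TM 1, and Cyp2b10, Cyp2d40 and Cyp3a59 were called whichever library was left out. In CAST liver 9 were left without control 3, and those 9 (Cyp1a1, Cyp1a2, Cyp2c40, Cyp2c55, Cyp2c67, Cyp2c68, Cyp2c69, Cyp4a10 and Cyp4a32) were called whichever library was left out. In F1 liver 5 were left without control 1, control 3, TM 1 or TM 2, while 26 were called without control 2, and Cyp2b10, Cyp2c55 and Cyp4a10 were called in every case. Without the libraries rich in receptor reads the calls rose to 40 in B6 liver (35 of them lower) and 35 in F1 liver (31 lower), in fits that hold 1 TM library each and take its spread from the controls. At an unadjusted p below 0.05 stood 38 of 57 members in B6 liver, 26 of 51 in CAST liver and 30 of 58 in F1 liver. Among all genes tested, 5036 of 21741 in B6 liver and 5899 of 17097 in CAST liver did so. The F1 liver count of members has no count over all genes beside it, so no excess is read from it. Shares of all genes called were not counted for the alternatives or for fits that leave libraries out. A rise of the members there cannot be told from a rise of all genes.

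Summed over the 64 members, the P450 level was lower with TM in every liver. The sum was 181968 to 236152 in the controls and 72654 to 114961 with TM in B6 liver, a ratio of means of 0.468. It was 184055 to 243632 in the controls and 137029 to 151297 with TM in CAST liver (ratio 0.675) and 142073 to 188000.0 in the controls and 63962 to 93241 with TM in F1 liver (ratio 0.469). Control and TM libraries did not overlap in any liver, and the difference in ratio between genotypes was not tested. The 7 hepatocyte markers (Alb, Apoa1, Ttr, Fgb, Serpina1c, Tat and Cps1) had log2 fold changes below 0 in all 3 livers except Tat, which was above 0 in all 3 and called higher in B6 liver (1.59, adjusted p = 0.0338). The other 6 were not called by limma, with Ttr closest (adjusted p = 0.0833, 0.0708 and 0.0973 in B6, CAST and F1 liver). Over the 7 the median log2 fold change was -0.81, -0.67 and -0.85 in B6, CAST and F1 liver. Their summed normalized count was 994804 to 1139070.0 in the controls and 608362 to 637316 with TM in B6 liver. It was 654029 to 1007750.0 in the controls and 427241 to 554782 with TM in CAST liver and 626894 to 800334 in the controls and 247602 to 460817 with TM in F1 liver. The part of this in the P450 values was not tested. In CAST liver the median of the P450 members (-0.53) was not below that of the hepatocyte markers (-0.67). Among markers of other liver cells, Marco was called higher among 6 macrophage markers in B6 and CAST liver, Kdr was called lower among 4 endothelial markers in B6 liver and Lrat was called lower among 5 stellate cell markers in CAST liver.

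**Figure D2:**
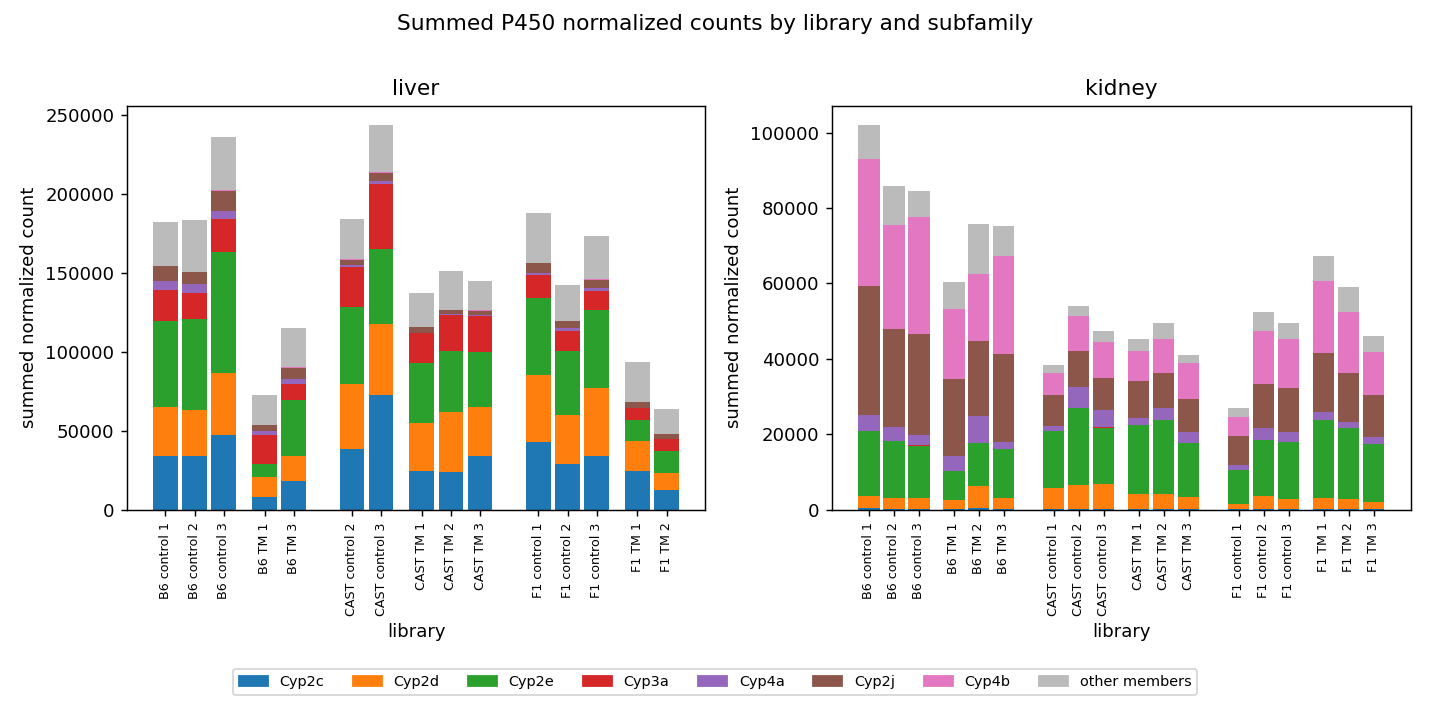
Bars give the summed normalized count of the 64 P450 members in each library, split by subfamily. In liver every TM bar is shorter than every control bar of its genotype, with sums of 181968 to 236152 and 72654 to 114961 in B6, while in CAST and F1 kidney the control and TM bars overlap.

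Per kb of exon, Cyp2e1, which oxidises ethanol and paracetamol, had the highest control level of the members in all 3 livers, at 29139, 22345 and 21381 normalized counts per kb in B6, CAST and F1. It was followed by Cyp2c29 in B6 (7080) and CAST (9111) liver and by Cyp2d10 in F1 liver (6075). Cyp2e1 normalized counts were 54214, 57812 and 76619 in the controls and 8619 and 35184 with TM in B6 liver. In CAST liver they were 48751 and 47689 in the controls and 37874, 38940.0 and 34279.8 with TM, and in F1 liver 48655, 40544 and 49224 in the controls and 13366 and 14443 with TM. The groups did not overlap in any liver, and the TM libraries of B6 liver were far apart. None of these changes passed the test (log2 fold change -1.84, SE 0.56, adjusted p = 0.0626 in B6, -0.38, adjusted p = 0.359 in CAST, and -1.73, adjusted p = 0.228 in F1).

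The Cyp1a genes, the textbook targets of the aryl hydrocarbon receptor, held 1 member called lower in all 3 livers (Cyp1a2) and 1 called lower in CAST liver (Cyp1a1). Cyp1a2, a constitutive enzyme of pericentral hepatocytes that oxidises caffeine and aromatic amines, was at 3672, 6229 and 5213 in the controls and 1216 and 2105 with TM in B6 liver. It was at 3113 and 4726 in the controls and 554, 796 and 716 with TM in CAST liver and at 5944, 3262 and 5184 in the controls and 1696 and 735 with TM in F1 liver. Every TM library lay below every control, and Cyp1a2 was called lower in all 3 livers (log2 fold change -1.62, SE 0.35, adjusted p = 0.0153 in B6, log2 fold change -2.49, SE 0.26, adjusted p = 0.000205 in CAST, and log2 fold change -2.06, SE 0.50, adjusted p = 0.0121 in F1). The B6 call was lost without control 3 (-1.58, adjusted p = 0.0515) or TM 1 (-1.23, adjusted p = 0.12). The F1 call was lost without control 1 (-1.88, adjusted p = 0.0732), control 3 (-1.98, adjusted p = 0.0646) or TM 2 (-1.45, adjusted p = 0.192). Cyp1a1, the inducible enzyme that oxidises polycyclic aromatic hydrocarbons, was at 88.2 and 108 in the controls and 19.6, 24.0 and 32.9 with TM in CAST liver and was called lower there (log2 fold change -1.93, SE 0.33, adjusted p = 0.00285), whichever library was left out. In B6 liver (-1.07, adjusted p = 0.119) and F1 liver (-1.48, adjusted p = 0.0715) its values did not overlap either but were not called. Cyp1b1, which is used mostly outside the liver and oxidises oestradiol, had log2 fold changes of 1.49, -0.33 and 1.42 in B6, CAST and F1 liver at mean levels under 50, and was not called.

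Cyp2b10 and Cyp2c55 were the members called higher in liver, Cyp2b10 in B6 and F1 and Cyp2c55 in CAST and F1. Cyp2b10, the classical target of CAR, was at 382, 189 and 196 in the controls and 3148 and 5569 with TM in B6 liver (log2 fold change 4.11, SE 0.38, adjusted p = 0.000225). It was at 16.7, 23.0 and 52.9 in the controls and 335 and 439.7 with TM in F1 liver (log2 fold change 3.76, SE 0.50, adjusted p = 5.46e-05). In CAST liver it was at 33.6 and 85.4 in the controls and 34.0, 29.6 and 127 with TM, with overlapping groups and no call (log2 fold change -0.09, SE 0.60, adjusted p = 0.935). The B6 and F1 calls held whichever library was left out, but not in limma without trend (adjusted p = 0.0593 in B6 and 0.188 in F1). Cyp2b10 shared 8.70% of its stretches of 50 bases with other genes, mostly with Cyp2b13. Cyp2b13 (log2 fold change 2.88, adjusted p = 0.0595 in B6 liver and 2.48, adjusted p = 0.621 in F1 liver), Cyp2b9 (3.16, adjusted p = 0.622 in F1 liver) and Cyp2b19 (2.66, adjusted p = 0.5 in F1 liver) were not called.

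Cyp2c55, which oxidises arachidonic acid, was at 33.6 and 107 in the controls and 467, 484 and 465 with TM in CAST liver (log2 fold change 2.95, SE 0.40, adjusted p = 0.000741). In F1 liver it was at 26.7, 39.1 and 39.2 in the controls and 276 and 277 with TM (log2 fold change 2.97, SE 0.44, adjusted p = 0.000173). The TM libraries of each genotype lay close together and far above the controls, and both calls held whichever library was left out. Without trend the F1 call was lost (adjusted p = 0.188). The CAST log2 fold change was 2.13, adjusted p = 0.00151 without control 2 and 3.77, adjusted p = 0.000294 without control 3. In B6 liver it was at 32.1, 57.6 and 63.1 in the controls and 35.5 and 30.0 with TM, where the groups overlapped (-0.57, adjusted p = 0.498). So F1 liver was the table in which both genes were called higher.

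**Figure D3:**
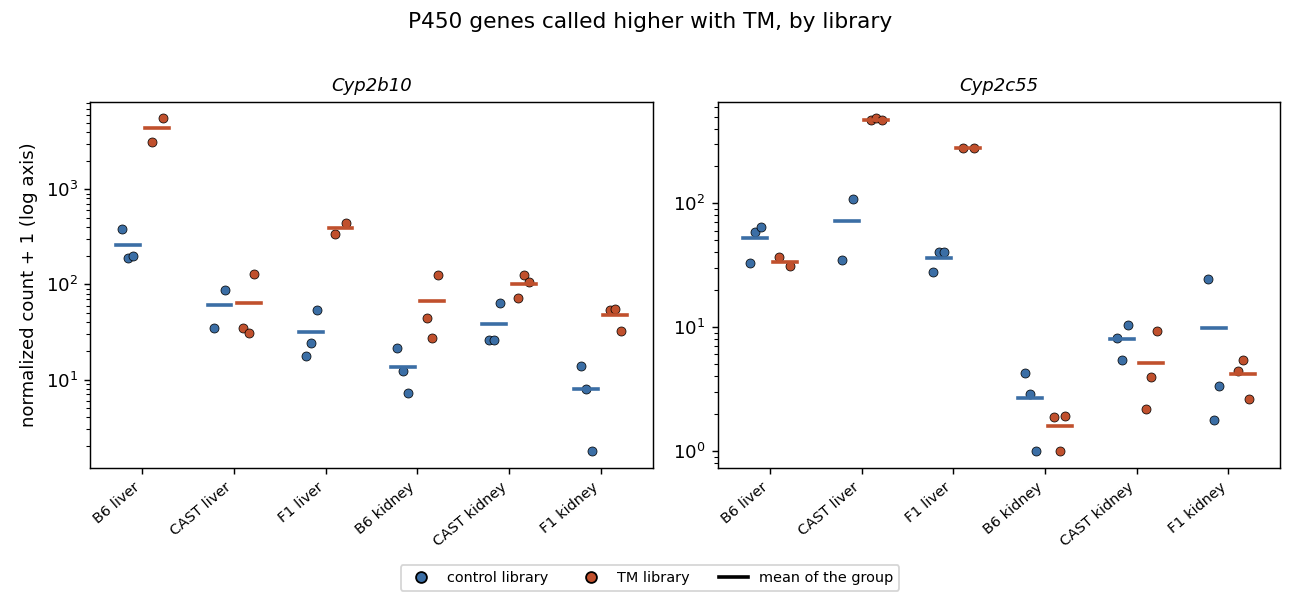
Points give normalized count + 1 per library on a log axis for Cyp2b10 and Cyp2c55, blue for controls and red for TM, with a line at each group mean. Cyp2b10 rises from 189 to 382 up to 3148 and 5569 in B6 liver but overlaps in CAST liver, and Cyp2c55 reaches 465 to 484 in CAST liver but overlaps in B6 liver.

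The other 9 Cyp2c genes had log2 fold changes below 0 in all 3 livers. In B6 liver 7 of the 10 were called lower (Cyp2c23, Cyp2c29, Cyp2c38, Cyp2c40, Cyp2c67, Cyp2c69 and Cyp2c70), and 7 in CAST liver (Cyp2c23, Cyp2c39, Cyp2c40, Cyp2c67, Cyp2c68, Cyp2c69 and Cyp2c70). In F1 liver 0 were called lower, where limma gave 6 of the 10, Cyp2c55 included, an unadjusted p below 0.05, and edgeR called 1 lower and DESeq2 3. The subfamily medians were -1.41, -1.21 and -1.05 in B6, CAST and F1. Cyp2c29, the highest of them in the controls of all 3 livers, was at 18588, 19477 and 26950.4 in the controls and 2619 and 11268 with TM in B6 liver (log2 fold change -1.98, SE 0.54, adjusted p = 0.0406). The 2 TM libraries differed by several fold, and the call was lost without control 2 (-2.04, adjusted p = 0.0748), control 3 (-1.81, adjusted p = 0.112) or TM 1 (-0.92, adjusted p = 0.359). In CAST liver its groups overlapped (17024 and 38752 in the controls and 13983, 15838 and 22509 with TM, log2 fold change -0.59, adjusted p = 0.295).

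Cyp2c70, the enzyme that makes the muricholic acids of mouse bile, was at 7193, 4022 and 7353 in the controls and 1717 and 2121 with TM in B6 liver (log2 fold change -1.64, SE 0.35, adjusted p = 0.0132). It was at 7568 and 18885 in the controls and 3872, 2019 and 5601 with TM in CAST liver (log2 fold change -1.76, SE 0.46, adjusted p = 0.0207). Both TM groups lay below their controls, and the CAST call was lost without control 3 (-1.10, adjusted p = 0.166) or TM 2 (-1.36, adjusted p = 0.0657). In F1 liver the groups overlapped (13586, 3518 and 5592 in the controls and 4632 and 2211 with TM). In B6 liver each of the 7 calls was lost without control 3 (adjusted p 0.0554 to 0.112) and without TM 1 (0.0707 to 0.359). In CAST liver Cyp2c40 (3606 and 3336 in the controls and 1359, 1175 and 907 with TM, log2 fold change -1.62, SE 0.24, adjusted p = 0.00113) held whichever library was left out. So did Cyp2c69 (2018 and 2106 in the controls and 635, 671 and 492 with TM, log2 fold change -1.79, SE 0.22, adjusted p = 0.000474). Cyp2c23 there was lost without control 3 (-0.90, adjusted p = 0.0512), and Cyp2c39 without control 3 (-0.45, adjusted p = 0.355), TM 1 (-1.02, adjusted p = 0.0833), TM 2 (-1.10, adjusted p = 0.115) or TM 3 (-1.26, adjusted p = 0.064). Cyp2c40, Cyp2c69, Cyp2c67 and Cyp2c68 share 60.3%, 54.3%, 52.8% and 43.3% of their stretches of 50 bases with other genes, so reads can be split between them and their separate values are uncertain.

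The Cyp2d genes, which oxidise many basic drugs and in male mouse liver also steroids, all had log2 fold changes below 0 in the 3 livers, and the calls were in B6 and F1. In B6 liver 5 of 8 were called lower (Cyp2d9, Cyp2d11, Cyp2d12, Cyp2d22 and Cyp2d40), in F1 liver 4 (Cyp2d11, Cyp2d12, Cyp2d22 and Cyp2d40), and in CAST liver 0, with medians of -1.20, -1.43 and -0.41. In CAST liver limma gave 2 of the 8 an unadjusted p below 0.05, edgeR called 0 and DESeq2 called 0. Cyp2d12 was at 445, 470.3 and 632 in the controls and 119 and 265 with TM in B6 liver. F1 liver had 1133, 741 and 1129 in the controls and 419.9 and 233 with TM, and CAST liver had 1504 and 1556 in the controls and 1255, 1336 and 1229 with TM. The groups did not overlap in any of them, but the CAST difference was small (log2 fold change -0.27, SE 0.20, adjusted p = 0.391). The gene was called in B6 (log2 fold change -1.51, SE 0.37, adjusted p = 0.0245) and F1 (log2 fold change -1.65, SE 0.42, adjusted p = 0.0165). Cyp2d40 was at 1971, 911 and 1454 in the controls and 388 and 445 with TM in B6 liver (log2 fold change -1.73, SE 0.35, adjusted p = 0.0105). This call held whichever library was left out, and in CAST liver the groups overlapped (2607 and 2438 in the controls and 1623, 2887 and 1460.3 with TM). Cyp2d9, a male-biased steroid hydroxylase, was at 9144, 10200.5 and 14028 in the controls and 1944 and 5816 with TM in B6 liver (log2 fold change -1.70, SE 0.45, adjusted p = 0.036). CAST liver had 15150.1 and 15709 in the controls and 12225, 13992 and 11573 with TM (-0.30, adjusted p = 0.423). Cyp2d10 and Cyp2d26, the highest per kb in B6 or F1 liver, were not called in any liver. Apart from Cyp2d40, the B6 calls were lost without control 3 (adjusted p 0.0932 to 0.128) and without TM 1 (0.129 to 0.318), with a Cyp2d9 log2 fold change of -0.91, adjusted p = 0.318 without TM 1. The 4 F1 calls were lost without control 1 (adjusted p 0.103 to 0.224), control 3 (0.112 to 0.279), TM 1 (0.0513 to 0.0948) or TM 2 (0.174 to 0.346).

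Among the Cyp3a genes, the drug-oxidising group controlled by PXR, Cyp3a57 and Cyp3a59 were the ones called in liver. Cyp3a11, the main mouse hepatic enzyme of the group, was at 15391, 13257 and 17828 in the controls and 16204 and 8492 with TM in B6 liver. CAST liver had 18629 and 31847 in the controls and 13162, 16728 and 17268 with TM, and F1 liver had 10051, 9179 and 8484 in the controls and 4847 and 4900.0 with TM. It overlapped in B6 and was lower in every TM library of CAST and F1. It was not called (log2 fold change -0.39, SE 0.38, adjusted p = 0.657 in B6, -0.64, adjusted p = 0.162 in CAST, and -0.92, adjusted p = 0.448 in F1). Cyp3a59 was at 568, 635 and 681 in the controls and 118 and 175 with TM in B6 liver (log2 fold change -2.12, SE 0.29, adjusted p = 0.00158), called whichever library was left out. In CAST liver it was at 3972 and 4520.3 in the controls and 2549, 2802 and 2354 with TM (log2 fold change -0.73, SE 0.22, adjusted p = 0.0372). The CAST call was lost without control 2 (-0.82, adjusted p = 0.0754), control 3 (-0.63, adjusted p = 0.15), TM 1 (-0.72, adjusted p = 0.0797) or TM 3 (-0.66, adjusted p = 0.157). Cyp3a57 was called lower in B6 liver (52.1, 48.9 and 57.6 in the controls and 8.28 and 18.2 with TM, log2 fold change -2.01, SE 0.45, adjusted p = 0.0166). That call was lost without control 1 (-2.02, adjusted p = 0.0564), control 3 (-1.95, adjusted p = 0.0964) or TM 1 (-1.49, adjusted p = 0.114). The values of Cyp3a59 are uncertain, since 30.0% of its stretches of 50 bases are shared, mostly with Cyp3a25. Cyp3a13, Cyp3a16 and Cyp3a44 were not called in any liver.

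The Cyp4a genes, fatty acid omega-hydroxylases and textbook targets of PPARα, held the member called with the largest fall in CAST liver (Cyp4a10) and in F1 liver (Cyp4a14). Cyp4a10 was at 3164, 2646 and 3136 in the controls and 503 and 1689 with TM in B6 liver. CAST liver had 272 and 837 in the controls and 42.0, 90.5 and 84.4 with TM, and F1 liver had 616, 921 and 482 in the controls and 67.3 and 61.5 with TM. It was called lower in all 3 (log2 fold change -1.69, SE 0.44, adjusted p = 0.0348 in B6, log2 fold change -2.78, SE 0.47, adjusted p = 0.00245 in CAST and log2 fold change -3.31, SE 0.41, adjusted p = 2.56e-05 in F1). The B6 call was lost without control 2 (-1.77, adjusted p = 0.0625), control 3 (-1.65, adjusted p = 0.0842) or TM 1 (-0.81, adjusted p = 0.282), and the CAST value ranged from -3.59 without control 2 to -1.97 without control 3. For Cyp4a14 the livers gave different calls, and limma's F-test of the genotype by treatment terms did not call the difference (unadjusted p = 0.0298). It was at 1894, 2307 and 1635 in the controls and 2034 and 1636 with TM in B6 liver, where the groups overlapped (log2 fold change -0.08, SE 0.29, adjusted p = 0.953). In F1 liver it was at 66.7, 145 and 142 in the controls and 3.47 and 26.0 with TM (log2 fold change -3.35, SE 0.64, adjusted p = 0.00187). This call was lost without TM 1 (-2.05, adjusted p = 0.122), and the value was -4.65, adjusted p = 2.45e-05 without TM 2. In CAST liver it was at 9.59 and 81.7 in the controls and 1.73, 14.8 and 7.20 with TM, with overlap and no call (-2.07, adjusted p = 0.141).

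Cyp4a32 was at 384, 452 and 408 in the controls and 105 and 218 with TM in B6 liver (log2 fold change -1.44, SE 0.34, adjusted p = 0.0225). In CAST liver it was at 746 and 983 in the controls and 189, 331 and 355 with TM (log2 fold change -1.60, SE 0.30, adjusted p = 0.00423). F1 liver had 759, 454 and 605 in the controls and 213 and 86.1 with TM (log2 fold change -2.12, SE 0.44, adjusted p = 0.00362). The TM libraries were lowest in each case. The B6 call was lost without control 3 (-1.45, adjusted p = 0.0685) or TM 1 (-0.92, adjusted p = 0.194) and the F1 call without TM 2 (-1.47, adjusted p = 0.0717). Cyp4a31 was called lower in CAST liver (log2 fold change -1.25, SE 0.38, adjusted p = 0.0409) and F1 liver (log2 fold change -1.84, SE 0.45, adjusted p = 0.0132), and both calls depended on single libraries. The CAST call was lost without control 2 (-1.52, adjusted p = 0.0724), control 3 (-0.98, adjusted p = 0.222), TM 1 (-0.88, adjusted p = 0.0844) or TM 2 (-1.34, adjusted p = 0.0718). The F1 call was lost without control 1 (-1.86, adjusted p = 0.114), control 3 (-1.88, adjusted p = 0.118) or TM 1 (-1.89, adjusted p = 0.0921). Cyp4a32 shares 43.8% of its stretches of 50 bases and Cyp4a10 29.8%, mostly with each other.

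**Figure D4:**
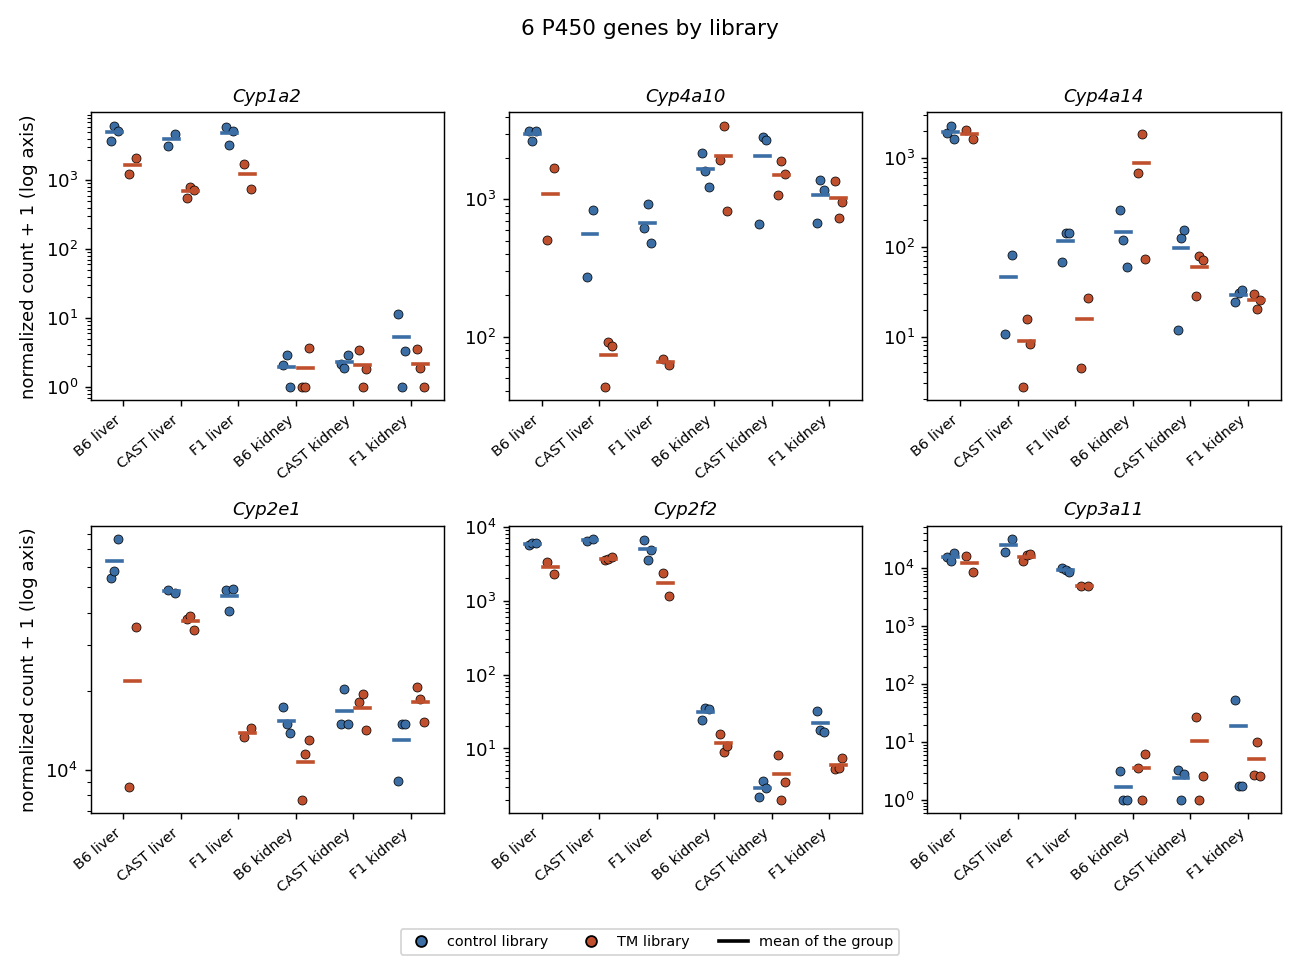
Points give normalized count + 1 per library on log axes for 6 P450 genes, blue for controls and red for TM, with a line at each group mean. Cyp1a2 and Cyp4a10 are lower in every TM library of all 3 livers, Cyp4a14 overlaps in B6 liver, and Cyp4a10 in the kidneys shows no such gap.

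Among the remaining liver members, Cyp2f2, which activates naphthalene in mouse, was at 5683, 6098 and 6040.1 in the controls and 3331 and 2314 with TM in B6 liver (log2 fold change -1.10, SE 0.30, adjusted p = 0.0423). CAST liver had 6329 and 6871 in the controls and 3541, 3633 and 3886 with TM (log2 fold change -0.84, SE 0.22, adjusted p = 0.0199). Without TM 1, the calls of Cyp2f2 were lost in both (adjusted p = 0.0565 in B6 and 0.0546 in CAST), as they were without control 3 (0.151 and 0.0834). Cyp4v3, the mouse counterpart of the human fatty acid hydroxylase of Bietti crystalline dystrophy, was at 3500.4, 2953 and 4559 in the controls and 1363 and 1287 with TM in B6 liver (log2 fold change -1.45, SE 0.30, adjusted p = 0.012). The call was lost without control 3 (-1.28, adjusted p = 0.062). Cyp4f14 was called lower in B6 (log2 fold change -1.09, SE 0.30, adjusted p = 0.0398) and CAST liver (log2 fold change -1.09, SE 0.23, adjusted p = 0.00697). The CAST call of Cyp4f14 was lost without control 3 (-0.89, adjusted p = 0.0579). Its B6 call was lost without control 1 (-1.18, adjusted p = 0.101), control 3 (-1.03, adjusted p = 0.154) or TM 1 (-0.82, adjusted p = 0.277). Cyp4f15 in F1 liver (-1.35, adjusted p = 0.0345), Cyp2j6 in B6 liver (-1.24, adjusted p = 0.0313) and Cyp2r1, a vitamin D hydroxylase, in CAST liver (-0.99, adjusted p = 0.0331) were called lower in a single table. These 3 calls were lost without control 3 of their table, at adjusted p = 0.263, 0.132 and 0.191, and without other libraries.

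Not every liver P450 had lower values with TM. Cyp2a5, the mouse coumarin hydroxylase, was at 2813 and 2634 in the controls and 5372, 7213 and 2980.2 with TM in CAST liver. F1 liver had 2553, 4975 and 3493 in the controls and 8350.4 and 5784 with TM, so that each TM library was above each control in both. B6 liver had 3166, 5749 and 4626 in the controls and 1842 and 3575 with TM, where the groups overlapped. None passed the test (log2 fold change 0.84, SE 0.34, adjusted p = 0.105 in CAST, log2 fold change 0.97, SE 0.52, adjusted p = 0.367 in F1, and log2 fold change -0.77, SE 0.38, adjusted p = 0.264 in B6). The steroid hydroxylase Cyp2a4, which shares 38.0% of its stretches of 50 bases, mostly with Cyp2a5, leaned the same way (0.43 and 1.00 in CAST and F1), and Cyp2a12 stayed between -0.35 and -0.13 without a call. Cyp2u1, a fatty acid hydroxylase, was at 179 and 149 in the controls and 545, 301 and 215 with TM in CAST liver (1.00, adjusted p = 0.0689). B6 liver had 721, 738 and 755 in the controls and 346 and 491 with TM (-0.84, adjusted p = 0.0893). The groups did not overlap in either, the signs were opposite and neither was called.

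In kidney Cyp4b1 and Cyp2j5 stood beside Cyp2e1 as the members with the highest level per kb. Cyp4b1, which is male-biased in mouse kidney, led in B6 (13622 normalized counts per kb in the controls), followed by the arachidonic acid epoxygenase Cyp2j5 (9661) and by Cyp2e1 (7148), while Cyp2e1 led in CAST (7807) and F1 (6046). In B6 kidney 2 of 43 members were called lower and 1 higher, where 7.77% of all genes were lower and 9.73% higher. In CAST kidney 1 of 43 was lower and 1 higher, against 4.7% and 8.69%, and in F1 kidney 1 of 49 was lower and 1 higher, against 2.57% and 7.54%. The members' medians were -0.14, -0.16 and -0.21 in B6, CAST and F1 kidney. Their summed normalized count was 84580.2 to 101986 in the controls and 60286 to 75754 with TM in B6 kidney (ratio 0.775), where the groups did not overlap, and overlapped in CAST (0.971) and F1 (1.34). In B6 kidney Cyp4b1 (33537, 27587 and 31067 in the controls and 18707, 17745 and 25977 with TM, -0.58, adjusted p = 0.0616), Cyp2j5 (-0.41, adjusted p = 0.117) and Cyp2e1 (-0.55, adjusted p = 0.0836) were lower in every TM library and were not called.

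Cyp2b10 was the member called in all 3 kidneys. It was at 20.4, 11.2 and 6.29 in the controls and 43.6, 26.4 and 125 with TM in B6 kidney (log2 fold change 2.11, SE 0.57, adjusted p = 0.023). In CAST kidney it was at 25.013, 25.3 and 63.0 in the controls and 70.5, 124 and 105 with TM (log2 fold change 1.48, SE 0.38, adjusted p = 0.0326). F1 kidney had 13.003, 6.88 and 0.782 in the controls and 53.1, 54.3 and 31.4 with TM (log2 fold change 2.98, SE 0.68, adjusted p = 0.0204). Each TM library was above each control of its genotype, at levels well under those of B6 liver. The B6 call was lost without control 2 (2.10, adjusted p = 0.0641), control 3 (1.73, adjusted p = 0.0826) or TM 3 (1.495, adjusted p = 0.081). The CAST call was lost without control 2 (1.27, adjusted p = 0.114), TM 2 (1.30, adjusted p = 0.13) or TM 3 (1.42, adjusted p = 0.107). The F1 call was lost without TM 1 (2.86, adjusted p = 0.117), TM 2 (2.85, adjusted p = 0.12) or TM 3 (3.23, adjusted p = 0.0627), and the lowest F1 control has a count near 1. Over the other settings the adjusted p ran from 0.000107 to 0.0769 for B6 kidney, from 0.000304 to 0.0684 for CAST kidney and from 8.14e-05 to 0.102 for F1 kidney.

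Cyp2f2 was called lower in B6 kidney (23.6, 34.6 and 33.3 in the controls and 14.8, 7.91 and 9.85 with TM, log2 fold change -1.43, SE 0.34, adjusted p = 0.0141). It was also called lower in F1 kidney (31.2, 16.8 and 15.6 in the controls and 4.28, 4.45 and 6.44 with TM, log2 fold change -1.83, SE 0.52, adjusted p = 0.0499). The B6 call was lost without control 2 (-1.33, adjusted p = 0.0646) or control 3 (-1.36, adjusted p = 0.0659), and the F1 call without 5 of the 6 libraries (adjusted p 0.0338 to 0.146 over all 6). Cyp2j13 was called lower in B6 kidney (6574, 4427 and 5315 in the controls and 2825, 2651 and 4282 with TM, log2 fold change -0.76, SE 0.20, adjusted p = 0.0234). The Cyp2j13 call was lost without control 1 (-0.61, adjusted p = 0.0702), control 3 (-0.76, adjusted p = 0.0661) or TM 2 (-0.63, adjusted p = 0.076). Cyp2d12 was called lower in CAST kidney (4600.1, 4525 and 4912 in the controls and 2726, 2758 and 2249 with TM, log2 fold change -0.87, SE 0.17, adjusted p = 0.0095), lost without TM 3 (-0.77, adjusted p = 0.0502). The labels do not state that libraries of the same replicate number form pairs. In B6 and CAST kidney such a pairing was inferred from these data, by correlations of 0.252 to 0.477 and 0.252 to 0.533. Some unlike numbers also passed the limit of 0.1, as TM 3 with control 2 did (0.151 in B6 and 0.206 in CAST), so the pairing is uncertain. With the replicate block 5 members were called in B6 kidney, the further ones being Cyp1a1 (1.68, adjusted p = 0.00417) and Cyp4a14 (1.88, adjusted p = 0.0252). In CAST kidney 4 were called with the block, the further ones being Cyp2c23 (-0.81, adjusted p = 0.0191) and Cyp2c70 (-1.26, adjusted p = 0.0274). Without F1 kidney control 1, the library with the fewest reads, 6 members were called in F1 kidney. Without any single TM library limma called 0, with 5, 3 and 5 members at an unadjusted p below 0.05 without TM 1, TM 2 and TM 3. Without CAST kidney control 1, the lowest control for all 4 Cyp4a genes, 8 were called.

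The tissue difference in response was tested within each genotype as the interaction of tissue and treatment, which cancels the separate scaling of the tables. It treats the libraries as independent, although 6 mice of each genotype were used for both tissues, and the labels do not say which libraries came from 1 mouse. In B6, 1 of 58 members was called, in CAST 3 of 56 and in F1 1 of 59, where 3.4%, 2.6% and 1.19% of all genes were. These numbers include members that reached a mean of 5 through liver alone. With the minimum mean of 5 required in each tissue, a setting chosen after seeing the data, 1 of 40 members was called in B6, 2 of 37 in CAST and 1 of 47 in F1, against 4.23%, 3.3% and 1.64% of all genes. The F1 member was Cyp4a10, which fell in liver and was not called in kidney (671, 1376 and 1179 in the controls and 1365, 736 and 964 with TM in F1 kidney). Its liver minus kidney difference was -3.26, SE 0.50, adjusted p = 0.01, called whichever library was left out, but not without trend (adjusted p = 0.0787), with edgeR (0.0622) or with the replicate block (0.115). In B6 it was Cyp4v3 (-1.64, SE 0.35, adjusted p = 0.0247), whose kidney values were 78.3, 62.7 and 63.8 in the controls and 99.4, 85.7 and 54.6 with TM. In CAST the members expressed in both tissues were Cyp2c55 (3.78, SE 0.78, adjusted p = 0.0241) and Cyp1a1 (-1.87, SE 0.44, adjusted p = 0.0442). Cyp1a1 was level in CAST kidney (25.013, 22.7 and 34.8 in the controls and 26.3, 22.8 and 29.0 with TM). The third CAST call was Cyp2c40, which was near 0 there (1.19, 0.874 and 0 in the controls and 1.19, 0.992 and 2.48 with TM), so that its value is no comparison of responses. Cyp2c55 was low in CAST kidney (7.15, 4.37 and 9.40 in the controls and 1.19, 2.97 and 8.27 with TM). The Cyp4v3 call was lost without 7 of 11 libraries, Cyp2c55 without 4 and Cyp1a1 without 9, with adjusted p up to 0.0728, 0.0899 and 0.142. With the block, which pairs libraries of 1 treatment and replicate number across tissues, Cyp4v3 (adjusted p = 0.0552) and Cyp1a1 (0.102) were not called and Cyp2c55 was (0.0291). Without trend, Cyp4v3 (0.079) and Cyp2c55 (0.0551) were not called. At an unadjusted p below 0.05 stood 22 of 58, 13 of 56 and 18 of 59 members in B6, CAST and F1. Among all genes, 3534 of 22526, 3136 of 20371 and 2980 of 23993 did so. The counts of members, here and in the fits that follow, include some that reached a mean of 5 through 1 tissue alone. The share of all genes called was not counted for those fits. Without the libraries rich in receptor reads 17 members were called in B6 and 7 in F1, with 1 TM liver library each, and DESeq2 on the recovered reads gave 9 and 11.

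The genotype difference in response was tested across the 3 genotypes within each tissue by an F-test of both interaction terms. No member passed in liver (of 55 tested) or kidney (of 44), where limma called 0% and 0.0747% of all genes. An unadjusted p below 0.05 was found for 10 liver and 4 kidney members. Among all genes it was found for 761 of 20157 in liver and 1233 of 22767 in kidney. In liver edgeR called 0 members and DESeq2 3, and in kidney both called 0. Cyp2c55 came closest in liver, with a CAST minus B6 difference of 3.52 and an F1 minus B6 difference of 3.54 on the log2 scale (adjusted p = 0.0733). The adjusted p of Cyp2c55 was 1.12e-05 with DESeq2, 0.0258 with the replicate block, 0.0474 with a pseudocount of 5 and 0.0417 with a minimum mean of 20. It was 0.0313 without CAST liver control 2, 0.00654 without CAST liver control 3 and 0.0268 without F1 liver control 2, and reached 0.511 over the other libraries and settings. Cyp2b10 had a CAST minus B6 difference of -4.19 and an F1 minus B6 difference of -0.35 (adjusted p = 0.151, 0.0011 with DESeq2, 0.0099 with the replicate block and up to 1). Thus the call of Cyp2b10 in B6 and F1 but not CAST liver, and that of Cyp2c55 in CAST and F1 but not B6 liver, were not shown by limma to be differences between genotypes after adjustment. Cyp3a59, Cyp2u1, Cyp2a5 and Cyp3a57 followed in liver (adjusted p = 0.855 to 1), and Cyp2f2, Cyp2j13, Cyp2j5 and Cyp2e1 in kidney (adjusted p = 0.672 to 0.916). Without the libraries rich in receptor reads Cyp2d12, Cyp2d9 and Cyp2e1 passed in liver (adjusted p = 0.0283, 0.0413 and 0.0379), in a fit that holds TM 1 alone for B6 and TM 1 alone for F1. The CAST minus B6 differences in response were 1.88, 2.24 and 2.52 there, against 1.25, 1.40 and 1.45 with all libraries, and B6 TM 1 had the lowest Cyp2e1 count of the B6 livers.

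Among the 30 genes of a list of receptors and transcription factors that control P450 genes, 14 were called lower and 2 higher in B6 liver. The numbers were 12 and 3 for CAST and 11 and 1 for F1, with medians of -0.80, -0.69 and -0.95. Of all genes tested in B6, CAST and F1 liver, 6.45%, 10.4% and 4.15% were called lower and 4.8%, 11.1% and 3.42% higher. CAR was at 463, 358 and 439 in the controls and 7.09 and 31.6 with TM in B6 liver (log2 fold change -4.69, SE 0.50, adjusted p = 0.000418). It was at 507 and 416 in the controls and 22.5, 44.3 and 53.5 with TM in CAST liver (log2 fold change -3.57, SE 0.36, adjusted p = 0.000181). F1 liver had 245, 228 and 272 in the controls and 13.9 and 13.7 with TM (log2 fold change -4.07, SE 0.43, adjusted p = 4.39e-06). CAR transcript was thus lower in every TM liver library, including the B6 and F1 livers in which its classical target Cyp2b10 was higher. PXR was not called in any liver (-0.49, adjusted p = 0.357 in B6, -0.47, adjusted p = 0.172 in CAST and -0.80, adjusted p = 0.33 in F1). Ahr was at 602, 475 and 493 in the controls and 99.3 and 164 with TM in B6 liver (log2 fold change -2.02, SE 0.31, adjusted p = 0.00286). It was also called lower in CAST (-1.89, adjusted p = 0.0028) and F1 liver (-1.76, adjusted p = 0.0188). The F1 call of Ahr was lost without control 1 (-1.72, adjusted p = 0.0611), control 3 (-1.45, adjusted p = 0.193), TM 1 (-2.24, adjusted p = 0.0796) or TM 2 (-1.28, adjusted p = 0.179).

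Ppara was lower in both tissues. It was at 2872, 2952 and 3049.8 in the controls and 176 and 392 with TM in B6 liver (log2 fold change -3.49, SE 0.35, adjusted p = 0.000285), while the B6 values of its target Cyp4a14 overlapped. In CAST liver (-1.65, adjusted p = 0.0268) and F1 liver (-2.27, adjusted p = 0.00714) it was called lower too. The CAST call of Ppara was lost without control 2 (-0.99, adjusted p = 0.231) or TM 3 (-1.22, adjusted p = 0.0686) and the F1 call without TM 2 (-1.27, adjusted p = 0.201). In kidney Ppara was called lower in B6 (1334, 1325 and 971 in the controls and 183, 489 and 388 with TM, -1.87, adjusted p = 0.00188), CAST (-1.77, adjusted p = 0.00195) and F1 (-1.36, adjusted p = 0.0218), where no Cyp4a gene was called lower. The F1 kidney call was lost without control 3 (-1.26, adjusted p = 0.0542), TM 1 (-1.22, adjusted p = 0.122), TM 2 (-1.49, adjusted p = 0.0658) or TM 3 (-1.37, adjusted p = 0.0831). Hnf4a was not called in any liver (-0.81, -0.37 and -0.09 in B6, CAST and F1). The repressor SHP (Nr0b2) was lower, with log2 fold changes of -4.50, -3.95 and -3.45 in B6, CAST and F1 liver (adjusted p = 0.000106, 0.000451 and 0.000447), with the F1 call lost without TM 1 (-3.23, adjusted p = 0.0636). HNF6 (Onecut1) was also lower, at -4.77, -4.95 and -3.69 (adjusted p = 0.000413, 0.00392 and 7.95e-05), with the CAST call lost without control 2 (-4.11, adjusted p = 0.0591). In the kidneys 4, 3 and 1 genes of the list of 30 were lower and 4, 3 and 3 higher in B6, CAST and F1. Of all genes tested there, 7.77%, 4.7% and 2.57% were called lower and 9.73%, 8.69% and 7.54% higher. CAR was under the mean of 5 in all 3 kidneys.

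**Figure D5:**
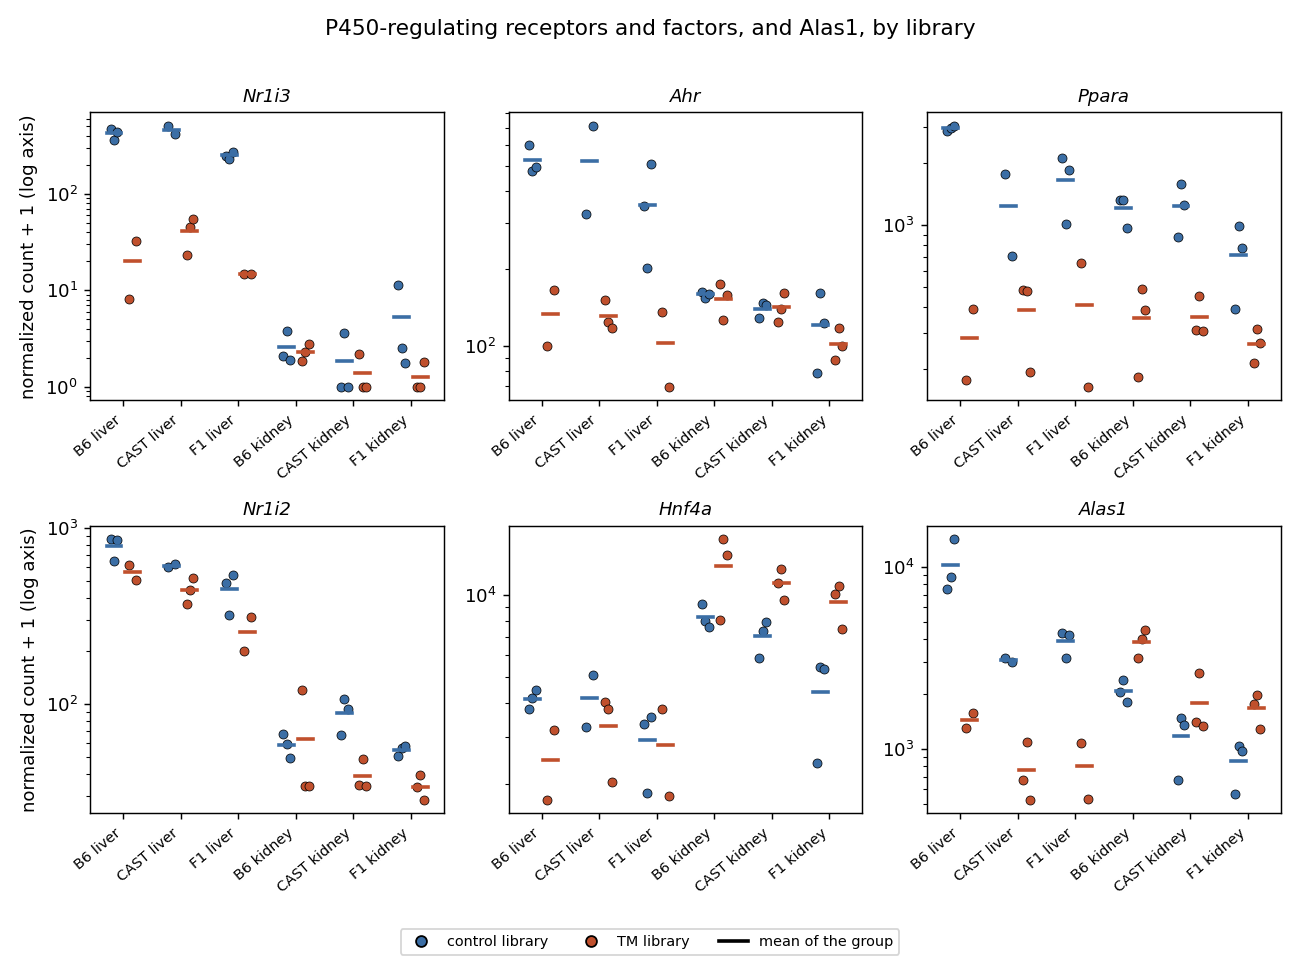
Points give normalized count + 1 per library on log axes for CAR (Nr1i3), Ahr, Ppara, PXR (Nr1i2), Hnf4a and the haem enzyme Alas1, blue for controls and red for TM, with a line at each group mean. CAR, Ahr, Ppara and Alas1 are lower in every TM library of all 3 livers, Ppara also in all 3 kidneys, and the Hnf4a groups overlap in CAST and F1 liver.

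Some electron donors of the P450 enzymes were called lower in liver. Por was at 4125, 4245 and 4085 in the controls and 2597 and 1615 with TM in B6 liver (-1.02, adjusted p = 0.0614) and was not called in any table. Of the 8 donor genes 1, 2 and 0 were called lower in B6, CAST and F1 liver, where 6.45%, 10.4% and 4.15% of all genes were. The calls were cytochrome b5 reductase Cyb5r3 in B6 (-1.46, adjusted p = 0.0337) and CAST (-0.78, adjusted p = 0.032) and Cyb5b in CAST (-0.88, adjusted p = 0.0448). Those 3 calls did not hold without TM 1 of their table (adjusted p = 0.252, 0.0666 and 0.05). Alas1, the rate-limiting enzyme of haem synthesis, was at 7569.8, 8756 and 14249 in the controls and 1297 and 1563 with TM in B6 liver (log2 fold change -2.78, SE 0.35, adjusted p = 0.000934). It was lower also in CAST (-2.09, adjusted p = 0.000956) and F1 liver (-2.35, adjusted p = 0.00241). The F1 call of Alas1 was lost without TM 2 (-1.84, adjusted p = 0.0507). In kidney it went the other way, at 2046, 2391 and 1812 in the controls and 3171, 4012 and 4475 with TM in B6 (0.89, adjusted p = 0.00271). The change was 1.00, adjusted p = 0.0464 in F1 and 0.61, adjusted p = 0.295, not called, in CAST. The F1 kidney call of Alas1 was lost without control 3 (1.12, adjusted p = 0.0628), TM 1 (0.95, adjusted p = 0.173), TM 2 (0.87, adjusted p = 0.186) or TM 3 (1.17, adjusted p = 0.0784). Hmox1, which breaks haem down and is a general stress gene, was called higher in all 6 tables, by 1.55 in B6 liver (0.0101 as adjusted p) to 5.91 in F1 kidney (3.44e-06) on the log2 scale.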

How the data were processed

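RNA sequencing of liver and kidney gave 33 libraries in 12 groups. The authors aligned B6 and CAST reads to strain genomes with Bowtie2 2.2.9 and F1 reads with STAR 2.6 to a genome masked at strain variants, and removed libraries that did not cluster with their treatment before deposit, which can narrow the spread within groups. The sources used here do not give the read counter. The deposited values are normalized counts (gene signal), which the authors made by dividing read counts by DESeq2 1.28.1 size factors within each of 6 tables, 1 for each genotype and tissue. Levels were therefore tested only within a table. In every library all values (100%) were whole multiples of 1 step within 0.01 reads, so whole reads were recovered, 3355262 to 23094521 per library.

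The main test was limma 3.58.1 with trend (R 4.3.3) on log2(normalized count + 1) of genes with a mean of at least 5, with Benjamini-Hochberg adjustment over all genes and calls at adjusted p below 0.05 and at least 1.5-fold. The pseudocount makes the fold changes of low genes too small. Tissue and genotype differences were interaction terms, called only for genes also called with TM in at least 1 table. The study used DESeq2. Because the tables hold normalized values, DESeq2 1.42.0 and edgeR 4.0.16 on the recovered reads were alternatives, beside other pseudocounts, minimum means, TMM scaling, centring, no trend, a replicate block, leaving out the libraries rich in receptor reads and leaving out each library in turn. A minimum mean in each tissue for the tissue differences was added after seeing the data. The code was tested on simulated data. Stretches of 50 bases shared between genes were counted in the annotated exons.

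Values in every library are given for the 2 highest members of each subfamily, the 10 largest called changes of a comparison with a mean of at least 50 and no overlap, members called higher, the 6 members with the lowest adjusted p in each genotype test and 13 fixed genes, and for up to 4 called genes of each list plus Nr1i2, Nr1i3, Ahr, Ppara, Hnf4a, Por and Alas1, trimmed here to those a comparison turns on. The members and lists were chosen with earlier results of these data known. Replicate numbers were taken as pairs where all 3 correlations of deviations from the group means were over 0.1, which held in B6 kidney (0.252 to 0.477) and CAST kidney (0.252 to 0.533), and not in F1 kidney (-0.03 to 0.509) or the livers, which share 2 numbers at most.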

Additional observations from a re-analysis of the deposited data

Results flagged for a closer look

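Between liver and kidney, 4 members that reached the minimum mean of 5 in each tissue were called by limma's interaction term. With that minimum 4.23%, 3.3% and 1.64% of all genes were called in B6, CAST and F1, so these few calls do not set the members apart. In CAST, the liver minus kidney difference was -1.87 for Cyp1a1 and 3.78 for Cyp2c55 on the log2 scale. In F1 it was -3.26 for Cyp4a10, and in B6 it was -1.64 for Cyp4v3. Of the 4, only Cyp4a10 was called whichever library was left out, and it was lost without trend, with edgeR and with the replicate block. The calls of Cyp1a1, Cyp2c55 and Cyp4v3 were each lost without some single libraries, and Cyp2c55 was low in CAST kidney.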

How the results depend on the processing

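The number of members called moved with the settings more than the direction did, and no called value changed sign under any alternative. B6 liver (22 calls) gave 0 without trend, 13 with edgeR, 35 with the replicate block and 40 without libraries rich in receptor reads. CAST liver (17) gave 11 without trend. F1 liver (12) gave 3 with no filter on low values, 19 with a mean of at least 20, 22 with TMM scaling, 19 with the median fold change set to 0, 0 without trend, 19 with edgeR, 28 with DESeq2, 32 with the replicate block and 35 without receptor-rich libraries. B6 kidney (3) gave 1 without trend and 5 with DESeq2, with the block or with adjusted p alone. CAST kidney (2) gave 1 without trend and 4 with the block. F1 kidney (2) gave 1 with a pseudocount of 5, no filter, a mean of at least 20, TMM scaling, centring, no trend or edgeR, 4 with the block and 6 without receptor-rich libraries.

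Tissue differences in B6 (1) became 5 with a pseudocount of 5, 3 with a mean of at least 20, 4 with centring, 0 without trend, 9 with DESeq2, 2 with the replicate block or adjusted p alone and 17 without receptor-rich libraries. Those in CAST (3) became 1 with a pseudocount of 0.5, 6 with a pseudocount of 5, and 1 without trend or with the block. Those in F1 (1) became 2 with a mean of at least 20, 3 with centring, 0 without trend, with edgeR or with the block, 11 with DESeq2 and 7 without receptor-rich libraries. Genotype differences in liver (0) became 1 with a pseudocount of 5 or a mean of at least 20, 3 with DESeq2, 2 with the block and 3 without receptor-rich libraries. In kidney they stayed at 0. The cause was not tested. The counts of tissue differences include members that reached the minimum mean through 1 tissue alone. Shares of all genes called were counted only for the main fit and for the minimum mean in each tissue. In the other settings, a rise of the members cannot be told from a rise of all genes.

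Leaving out 1 library at a time gave 3 to 26 calls in B6 liver, 9 to 16 in CAST liver, 5 to 26 in F1 liver, 1 to 5 in B6 kidney, 1 to 8 in CAST kidney and 0 to 6 in F1 kidney. For tissue differences it gave 0 to 9 (B6), 0 to 2 (CAST) and 1 to 8 (F1), and 0 to 1 genotype differences in liver and 0 in kidney. Of the 63 calls on single members, 62 were kept with DESeq2, 61 with TMM scaling, 58 with the replicate block, 50 with edgeR, 46 with no filter and 15 without trend. In the livers and F1 kidney the replicate numbers did not meet the limit for pairs, so the block there is only another fit. In B6 and CAST kidney the pairing was inferred from these data and not stated in the labels. Groups of 2 or 3 libraries limit all of these values, and normalization within tables leaves levels between tables untested.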

Other observations

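Some P450 genes outside families 1 to 4 were also called, in both tissues. Cyp7a1, the rate-limiting enzyme of bile acid synthesis, was lower in all 3 livers (log2 fold change -4.20, SE 0.62, adjusted p = 0.00229 in B6, log2 fold change -2.59, SE 0.56, adjusted p = 0.00895 in CAST and log2 fold change -5.46, SE 0.45, adjusted p = 1.32e-07 in F1), with the CAST call lost without control 2 (-2.59, adjusted p = 0.0505) or control 3 (-2.59, adjusted p = 0.0512). Cyp24a1, which inactivates vitamin D in kidney, was lower in all 3 kidneys (-3.02, adjusted p = 0.0128 in B6, -3.57, adjusted p = 0.00274 in CAST and -2.15, adjusted p = 0.00704 in F1) whichever library was left out, with the B6 and F1 calls lost without trend (adjusted p = 0.0707 and 0.082). Cyp27b1, which activates vitamin D, was higher in CAST kidney (2.07, adjusted p = 0.0102). Of the 19 genes of this list (17 tested in B6 liver), 3, 2 and 3 were called lower and 0, 1 and 0 higher in B6, CAST and F1 liver. All genes tested were called lower there in 6.45%, 10.4% and 4.15% and higher in 4.8%, 11.1% and 3.42%. In B6, CAST and F1 kidney 2, 1 and 1 of the list were lower and 1, 3 and 1 higher. The shares of all genes were 7.77%, 4.7% and 2.57% lower and 9.73%, 8.69% and 7.54% higher.

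Part of the other genes of drug metabolism were called lower in liver, where 6.45%, 10.4% and 4.15% of all genes tested were called lower in B6, CAST and F1. Of 19 UDP-glucuronosyltransferases tested, 10, 9 and 2 were called lower in B6, CAST and F1 liver and none higher, with Ugt2b1 at -2.53 in B6 and -1.35 in CAST. Of 7 flavin monooxygenases and epoxide hydrolases 4, 6 and 3 were lower, with Fmo4 at -2.19, -2.80 and -1.65. Of the sulfotransferases 4 of 8, 4 of 7 and 1 of 8 were lower, and of 22 glutathione S-transferases 5, 4 and 4 were lower, so that most members of both lists were not called in F1, and Gstm3 was higher in B6 liver (1.82, adjusted p = 0.00459). Of 15 pericentral hepatocyte genes other than P450s 9, 8 and 5 were lower, and of 16 periportal genes 3, 7 and 7, with the gluconeogenic enzyme Pck1 at -4.44, -2.58 and -5.58. Of 17 genes of the sex-biased liver programme tested, 4, 7 and 3 were lower, with the male-biased steroid enzyme Hsd3b5 at -6.19, -2.13 and -3.12. Of 13 haem genes 2 were lower in each liver and 1, 3 and 1 higher. Of the acute phase genes 3 of 14, 1 of 13 and 2 of 14 were lower. No list was tested against the rest of the genes.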
